A study of Danio rerio with 8 samples.

Results

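The genes described here are the keratin genes, the claudin genes and epcam of the zebrafish heart. Many of them are known from epithelial cells, though the set also holds claudins known from endothelium and myelin. They were taken by name, as every gene ID whose symbol begins with krt followed by a digit or t, or with cldn, together with epcam. A gene also needed at least 10 counts summed over the 6 heart libraries. The rule matched 62 of 31953 gene IDs and kept 53, which are 19 keratins, 33 claudins and epcam. The 9 IDs left out were 1 keratin and 8 claudins, of which 6 had no heart count. The other 3 had 1 to 3 counts, with cldn10d at 3 just outside the minimum, while cldn7a with 10 counts and cldn23l and CLDN8 with 13 each were just inside it.

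The samples were hearts of 21 days post fertilisation (dpf) zebrafish of the TU strain, 3 libraries labelled zfpm1 mutant and 3 labelled control. zfpm1 encodes a FOG family cofactor of GATA transcription factors, and the study asked which genes lie downstream of it in the embryo and in the maturing heart chambers. The labels name neither the mutant allele nor how many hearts went into a library, and they do not say that libraries of a group came from separate fish, so a p-value here reflects only how libraries of a group varied, and part of that variation may be technical. Another 2 libraries carry labels of 36 hours post fertilisation (hpf) embryos, 1 zfpm1 mutant and 1 control. The zfpm1 transcript itself had 558, 471 and 956 counts in mutant replicates 1 to 3 and 419, 344 and 423 in control replicates 1 to 3, a log2 fold change of 0.50 (edgeR adjusted p 0.241). These counts do not check the genotype, since a mutant allele can leave its transcript in place.

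Gene counts per heart library were 7614329 to 9909966 in mutants and 8197337 to 9632464 in controls. Mutant replicate 1 had the same total over all lines (19276348) and the same number of reads not aligned uniquely (2130930) as the library labelled control embryo, and control replicate 1 shared both totals (22649056 and 2907502) with the library labelled zfpm1 mutant embryo. The embryo-labelled files were therefore not used as separate samples, and values without both heart libraries numbered 1 are given for many of the genes named below. As a check of the tissue, 16 cardiomyocyte genes held 3.41% to 5.33% of gene counts in mutant hearts, all below the 5.76% to 7.46% in control hearts. In bulk tissue, fewer cells of a type and less RNA per cell cannot be told apart.

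Keratins are the intermediate filament proteins of epithelia, and a filament forms only from a type I with a type II chain. krt8 (type II) pairs with krt18 (type I) in simple epithelia such as gut, liver ducts and mesothelium, while krt4, krt5, krt17 and krt1-19e are known from zebrafish skin. Claudins are membrane proteins that span the membrane several times and form the strands of tight junctions, where their mix sets which ions and solutes pass between cells. Epcam is an adhesion protein of epithelial cells that binds claudin-7 in mammals. A heart holds mesothelium on its surface and endothelium inside, but no skin, gut or liver epithelium.

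Some claudins rose in mutant hearts, while no keratin passed the test; whether the families differ was not tested. Of 25 claudins with enough counts to test, 3 rose in zfpm1 mutant hearts and none fell, and of 14 keratins none rose or fell. Those 3 claudins were cldn3d, cldn15lb and a gene carrying the symbol CLDN5. Of them, cldn3d and cldn15lb passed the filter on low counts through their mutant counts alone. Among all 16707 genes tested, 9.43% were called, 7.02% higher and 2.42% lower. Calls are edgeR quasi-likelihood tests with a Benjamini-Hochberg adjusted p under 0.05. At an unadjusted p under 0.05 stood 2 of the 14 keratins and 9 of the 25 claudins, against 23.6% of all genes tested, and DESeq2 called no keratin and 4 claudins, all higher. Without both libraries numbered 1, edgeR called no keratin and 4 claudins, all higher and including cldn15la. cldn15la, which was not tested with all libraries, passed the filter there on its mutant counts alone. The median log2 fold change was -0.19 over the tested keratins and 0.77 over the tested claudins, where it was -0.01 over all genes tested. Without both libraries numbered 1 it was -0.19 over keratins and 0.86 over claudins. epcam was tested and did not pass. Levels below are CPM, the counts of a gene scaled to a common library total by TMM. TMM corrects library sizes for the make-up of each library, and CPM is not corrected for gene length.

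**Figure D1:**
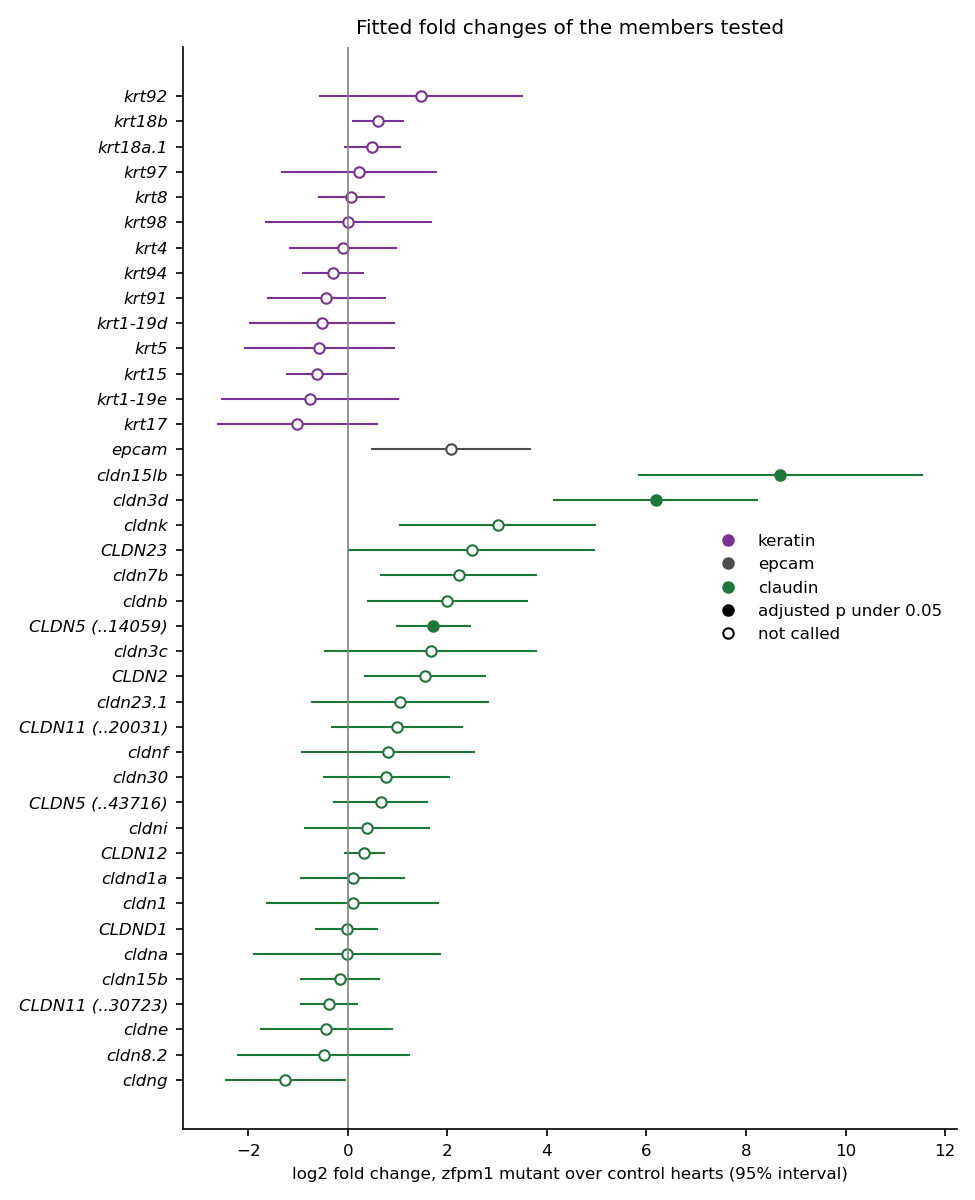
Log2 fold changes of zfpm1 mutant over control hearts (x axis) for the 40 members tested, keratins at the top, epcam below them and claudins at the bottom; bars are 95% intervals of the fit and filled points have an adjusted p under 0.05. The 3 filled points are cldn15lb, cldn3d and CLDN5, and among keratins the intervals of krt18b and krt15 alone lie clear of 0. cldn15lb had no count in any control heart, so its point and bar do not measure the size of its change.

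Keratins of simple epithelia were abundant in every library, and those that were tested did not pass. krt8 measured 2125, 2234 and 2403 CPM in mutant hearts and 1620.1, 2675 and 2134 CPM in control hearts, each in the order of replicates 1 to 3, as in all such values below. The mutant values lay inside the control range, with a log2 fold change of 0.07 (SE 0.28, 95% interval -0.57 to 0.72, edgeR adjusted p 0.918). Its partner krt18a.1 had 411, 358 and 410.2 CPM in mutant hearts and 199.6, 358 and 283 CPM in control hearts. All mutants lay above all controls, though mutant replicate 2 and control replicate 2 were equal to 3 digits, and the difference did not pass the test (log2 fold change 0.49, SE 0.24, edgeR adjusted p 0.265). Another krt18 gene, krt18b, had 238, 167 and 154 CPM in mutant hearts and 112, 143 and 111 CPM in control hearts. All 3 mutants lay above all 3 controls, and the fitted log2 difference was 0.61 (SE 0.22, edgeR adjusted p 0.134). It was past the threshold when libraries were scaled by size alone, at an adjusted p of 0.0423.

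krt18a.2, which lies beside krt18a.1, had few counts and was not tested. It had 6, 11 and 5 counts in mutant hearts and none in control hearts, where 3 counts over the group, or 0.124 CPM, is the limit that a count of 0 allows. Its summed mutant counts were 6.30-fold above that limit, a value that takes them as exact and leaves out spread between libraries. With no filter on low counts the edgeR adjusted p of krt18a.2 was 0.0754.

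krt94 and krt15, which lie close together in the zebrafish genome, were also abundant in every heart. krt94 had 1201, 1199.5 and 1329 CPM in mutant hearts and 1222, 1950.4 and 1395 CPM in control hearts, and the groups overlapped (log2 fold change -0.29, SE 0.26, edgeR adjusted p 0.569). krt15, a type I keratin, had 214, 196 and 229.7 CPM in mutant hearts and 245, 468 and 275 CPM in control hearts. All mutants lay below all controls, by a narrow margin, and the difference did not pass the test (log2 fold change -0.62, SE 0.26, adjusted p 0.194). Counted per krt8 count in the same library, a ratio that no scaling of libraries can move, krt15 was at 0.101, 0.0879 and 0.0956 in mutant hearts and 0.151, 0.175 and 0.129 in control hearts. The same ratio for krt94 was 0.565, 0.537 and 0.553 in mutant hearts and 0.754, 0.729 and 0.654 in control hearts. For krt18a.1 it was 0.193, 0.160 and 0.171 in mutant hearts and 0.123, 0.134 and 0.132 in control hearts. In these 3 ratios the groups did not overlap, with krt15 and krt94 lower and krt18a.1 higher per krt8 count in mutants, while the krt18b ratio overlapped. The ratios share krt8 as denominator, were chosen after the values had been seen and were not tested. How many other genes would not overlap in such a ratio was not counted. In CPM, 29.7% of all genes tested did not overlap between the groups.

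**Figure D2:**
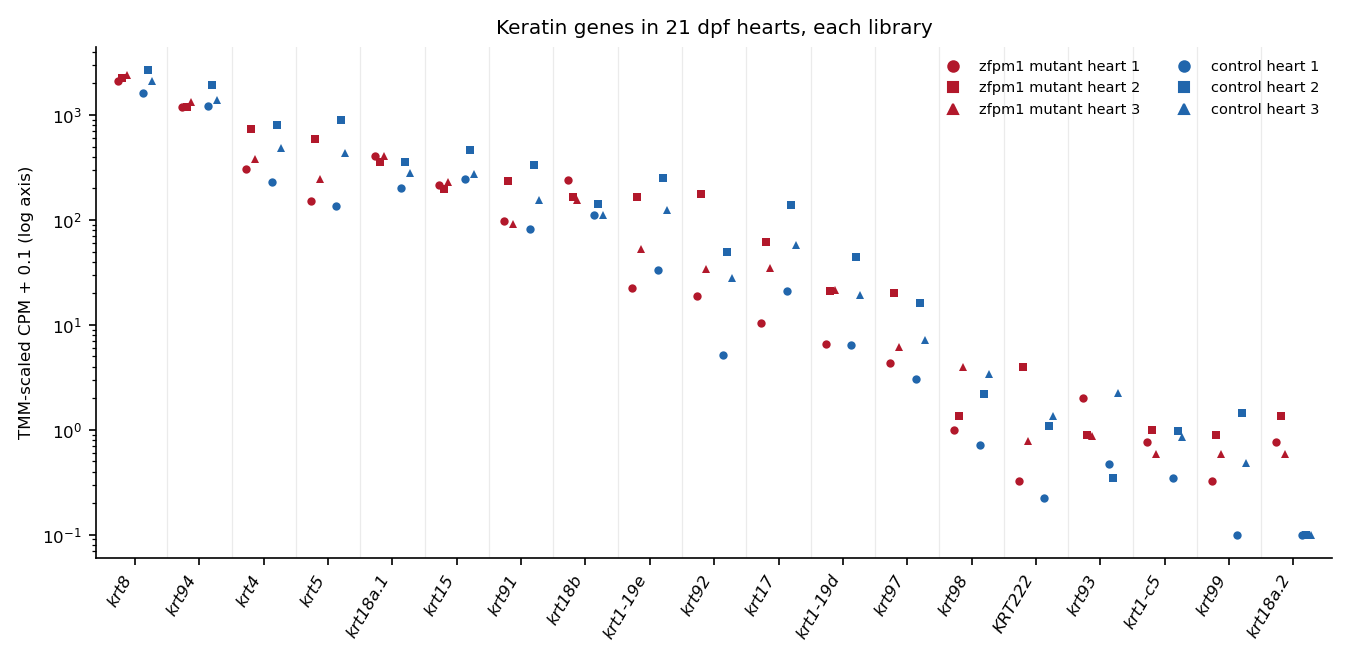
Level of each keratin gene in each heart library, as TMM-scaled CPM plus 0.1 on a log axis, genes ordered by their counts; red marks are zfpm1 mutant hearts, blue marks control hearts, and circle, square and triangle are replicates 1, 2 and 3. krt8 and krt94 lie close together in all libraries, whereas from krt4 and krt5 to krt97 the squares (replicate 2 of each group) sit high and the circles (replicate 1) low in most genes.

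The skin keratins varied several-fold between libraries of the same genotype. krt5 (type II) had 152, 596 and 247 CPM in mutant replicates 1 to 3 and 136, 902 and 439 CPM in control replicates 1 to 3. Replicate 2 was high and replicate 1 low in both groups, and the groups overlapped, with a log2 fold change of -0.57 (SE 0.66, 95% interval -2.06 to 0.92, edgeR adjusted p 0.669). It was -1.29 without mutant replicate 2 and 0.20 without control replicate 2, so that 1 library turned its sign. krt4 (type II) had 308, 740.2 and 378 CPM in mutant hearts and 229.8, 811 and 482 CPM in control hearts. It followed the same order, at a fitted log2 difference of -0.10 (SE 0.47, edgeR adjusted p 0.937), and its sign turned to 0.17 when libraries were scaled by size alone.

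krt17, a type I keratin, had 10.4, 61.8 and 34.8 CPM in mutant hearts and 20.9, 138 and 57.1 CPM in control hearts (log2 fold change -1.01, SE 0.71, edgeR adjusted p 0.435). krt1-19e, known from basal skin cells, had 22.4, 167 and 52.4 CPM in mutant hearts and 33.5, 253 and 123 CPM in control hearts. The groups overlapped in both genes, and the krt17 value was -0.14 without control replicate 2. Control replicate 2 was again the highest library in krt91, at 96.6, 234 and 91.9 CPM in mutant hearts and 81.3, 335 and 154 CPM in control hearts, and in krt1-19d, at 6.49, 20.9 and 21.2 CPM in mutant hearts and 6.36, 44.0 and 19.0 CPM in control hearts. Adjusted p was 0.686 for krt91 and 0.697 for krt1-19d.

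Control replicate 2 was the highest control library in 13 of the 14 tested keratins and control replicate 1 the lowest in 13 of 14, and in 9 of 14 control replicate 2 was more than 2-fold above control replicate 1. Over all genes tested, control replicate 2 was the highest control in 41.1% and control replicate 1 the lowest, ties included, in 37.4%. Mutant replicate 2 was the highest mutant in 7 of the 14 keratins, against 31.4% of all genes tested. Other skin surface genes were measured beside these keratins. The 23 genes of that list that are not members summed to 301, 396 and 241 CPM in mutant hearts and 148, 490.1 and 302 CPM in control hearts. The exocrine pancreas list of 19 genes, which includes the protease gene prss1, summed to 241, 906 and 70.9 CPM in mutant hearts and 18.7, 635 and 228 CPM in control hearts, and it too was highest in both libraries numbered 2 and lowest in control replicate 1. PTF1A, a transcription factor of pancreas, was near 0 throughout, with 2 counts in mutant replicate 2 and none in any other heart, and edgeR called none of its 16 tested genes, of which 1 had an unadjusted p under 0.05. The part of these other tissues in the keratin values was not tested.

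krt92 and krt97 stood apart from the other skin-pattern keratins in their ratio to krt5. krt92 had 18.7, 178 and 33.9 CPM in mutant hearts and 5.02, 49.8 and 27.6 CPM in control hearts, with 56.8% of its summed CPM in mutant replicate 2. The groups overlapped, and its log2 fold change of 1.48 (SE 0.90, edgeR adjusted p 0.368) was -0.05 without mutant replicate 2. Per krt5 count in the same library, however, krt92 was at 0.123, 0.298 and 0.137 in mutant hearts and at 0.0369, 0.0552 and 0.0629 in control hearts. krt97 was at 0.0280, 0.0334 and 0.0246 per krt5 count in mutant hearts and at 0.0216, 0.0176 and 0.0161 in control hearts. In both, all mutants lay above all controls, while the ratios of krt17, krt1-19e, krt91 and krt4 to krt5 overlapped between the groups. krt97 itself, at 4.25, 19.9 and 6.07 CPM in mutant hearts and 2.94, 15.9 and 7.06 CPM in control hearts, had a log2 fold change of 0.22 (adjusted p 0.891). These ratios share krt5 as denominator, and they too were picked after their values had been seen and have no test. The share of all genes that would not overlap in such a ratio was not counted.

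The remaining keratins were scarce. krt98 had 8, 11 and 40 counts in mutant hearts and 5, 17 and 26 in control hearts and was the last keratin to pass the filter (log2 fold change 0.01, edgeR adjusted p 0.994). krt93, krt99, krt1-c5 and KRT222 had 28 to 62 counts over all hearts and were not tested. KRT222 had 2, 34 and 7 counts in mutant hearts and 1, 8 and 10 in control hearts, so that mutant replicate 2 held most of them. With no filter on low counts none of these 4 was called, with adjusted p of 0.669 to 0.971.

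epcam, the general epithelial marker, had 100.4, 58.8 and 19.8 CPM in mutant replicates 1 to 3 and 3.18, 23.7 and 15.4 CPM in control replicates 1 to 3. Mutant replicate 3 lay below control replicate 2, so the groups overlapped, and values spanned 31.6-fold over the 6 libraries. The log2 fold change of 2.08 (SE 0.70, 95% interval 0.49 to 3.67) did not pass the test (edgeR adjusted p 0.109), and it was 1.03 (SE 0.44, adjusted p 0.217) without both libraries numbered 1.

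cldn7b and cldnb, claudins of many zebrafish epithelia, followed epcam from library to library. cldn7b had 66.6, 30.1 and 16.6 CPM in mutant hearts and 1.59, 13.3 and 9.21 CPM in control hearts. All mutants lay above all controls, and the log2 fold change of 2.23 (SE 0.69) had an edgeR adjusted p of 0.0825, and of 0.0346 with no filter on low counts. Leaving out both libraries numbered 1 gave 1.07. cldnb had 46.0, 45.4 and 14.4 CPM in mutant hearts and 1.35, 15.9 and 9.08 CPM in control hearts, with overlap between mutant replicate 3 and control replicate 2 (log2 fold change 2.0, SE 0.71, adjusted p 0.123, and 1.28 without both libraries numbered 1). Per epcam count in the same library, cldn7b was at 0.663, 0.511 and 0.835 in mutant hearts and 0.50, 0.562 and 0.598 in control hearts. cldnb was at 0.458, 0.772 and 0.728 in mutant hearts and 0.423, 0.672 and 0.590 in control hearts. The first ratio spanned 1.67-fold and the second 1.82-fold over libraries whose epcam level spanned 31.6-fold.

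**Figure D3:**
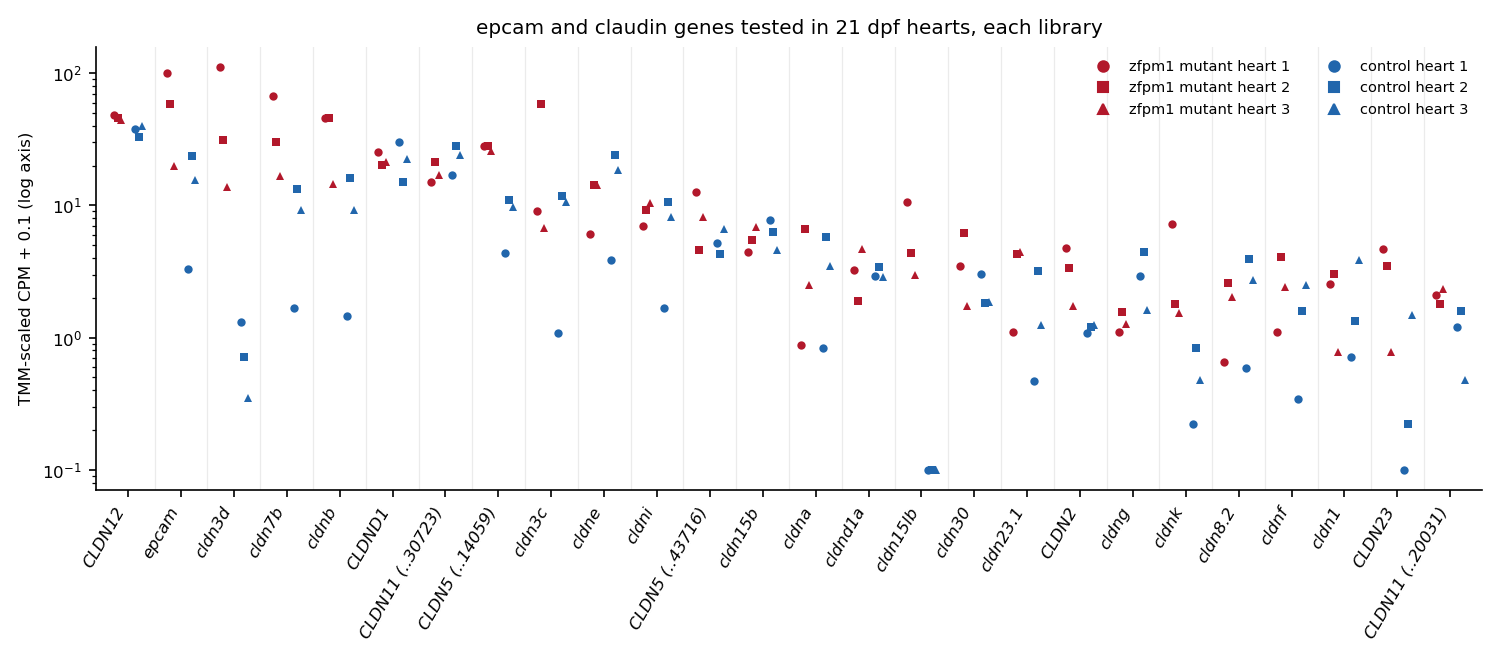
Level of epcam and each tested claudin gene in each heart library, as TMM-scaled CPM plus 0.1 on a log axis, genes ordered by their counts; red marks are zfpm1 mutant hearts, blue marks control hearts, and circle, square and triangle are replicates 1, 2 and 3. cldn3d, cldn15lb and CLDN5 (ENSDARG00000014059) have all red marks above all blue marks. So do CLDN12, cldn7b, CLDN2, cldnk and CLDN11 (ENSDARG00000020031), which were not called. epcam, cldn7b and cldnb share a low mark in control replicate 1. That library was the lowest control, ties included, for 16 of the 25 claudins drawn.

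cldn3d rose in mutant hearts. Mammalian claudin-3 is a sealing claudin of many epithelia. cldn3d (ENSDARG00000015955) had 996, 279 and 143 counts in mutant hearts and 10, 5 and 2 counts in control hearts, or 111, 31.4 and 13.8 CPM against 1.22, 0.617 and 0.252 CPM. Every mutant lay more than 10-fold above every control, and the log2 fold change was 6.19 (SE 0.90, 95% interval 4.15 to 8.23, edgeR adjusted p 0.00383). cldn3d passed the filter on its mutant counts alone, and mutant replicate 1 held 70.2% of its summed CPM. The fitted fold of 73.0 was 32.0 without mutant replicate 1 and 115 without control replicate 1, and the call was kept without any 1 library, at adjusted p values no higher than 0.0308. Leaving out both libraries numbered 1 gave a log2 fold change of 5.67 (edgeR adjusted p 0.000358). Per epcam count, cldn3d was at 1.11, 0.534 and 0.694 in mutant hearts and at 0.385, 0.0260 and 0.0164 in control hearts. The mutants again lay above the controls, and control replicate 1, with only 10 cldn3d and 26 epcam counts, was nearest to them.

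cldn15lb (ENSDARG00000100844) had 94, 38 and 30 counts in mutant hearts and none in control hearts. In CPM that was 10.5, 4.28 and 2.89 in mutants. The summed mutant counts were 46.4-fold above the 0.124 CPM that 3 counts over the control group would give. That fold takes the mutant counts as exact and leaves out spread between libraries. cldn15lb passed the filter on its mutant counts alone, and its edgeR adjusted p was 0.00665. The fold over 3 control counts was 28.5 without mutant replicate 1 and 30.7 to 31.2 without any 1 control. The call was kept without any 1 library, at edgeR adjusted p values no higher than 0.0282. It was also kept without both libraries numbered 1 (adjusted p 0.00820). cldn15lb was at 0.105, 0.0728 and 0.146 per epcam count in mutant hearts, a narrower span than that of its level.

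cldn15la, which zebrafish researchers use as a marker of gut epithelium, was too sparse for the test's filter. It had 8, 72 and 13 counts in mutant hearts and 0, 0 and 2 in control hearts, a ratio of 39.9 once library sizes were taken into account, with an exact 95% counting interval of 10.7 to 335. Mutant replicate 2 held 77.2% of its summed CPM, where cldn3d and cldn15lb had their highest level in mutant replicate 1. With no filter on low counts its edgeR adjusted p was 0.0190. Without both libraries numbered 1 it passed the filter, on its mutant counts alone, and was called (log2 fold change 5.08, edgeR adjusted p 0.0396). The called genes of the intestine list were split between these patterns, with 3 of 5 highest in mutant replicate 1 (TM4SF4, gpa33b and apoa4b.2) and 2 in mutant replicate 2 (FABP2 and apoa4b.1). FABP2, a fatty acid binding protein of gut cells, was at 9.62, 19.7 and 7.13 CPM in mutant hearts and 0.734, 2.47 and 0.883 CPM in control hearts (log2 fold change 3.14, SE 0.57, adjusted p 0.0108).

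cldn3c, which lies beside cldn3d, showed a single high library. It had 80, 522 and 69 counts in mutant hearts and 8, 95 and 84 in control hearts, and mutant replicate 2 held 60.2% of its summed CPM. The groups overlapped, and the log2 fold change of 1.67 (SE 0.94, edgeR adjusted p 0.326) was 0.01 without mutant replicate 2. cldnk, a claudin of zebrafish myelin, had 64, 15 and 15 counts in mutant hearts and 1, 6 and 3 in control hearts, with 62.1% of its summed CPM in mutant replicate 1. It passed the filter on its mutant counts alone. Its log2 fold change was 3.01 (SE 0.86, edgeR adjusted p 0.0650), past the threshold under DESeq2, under library size scaling and with no filter, and 1.48 without both libraries numbered 1.

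**Figure D4:**
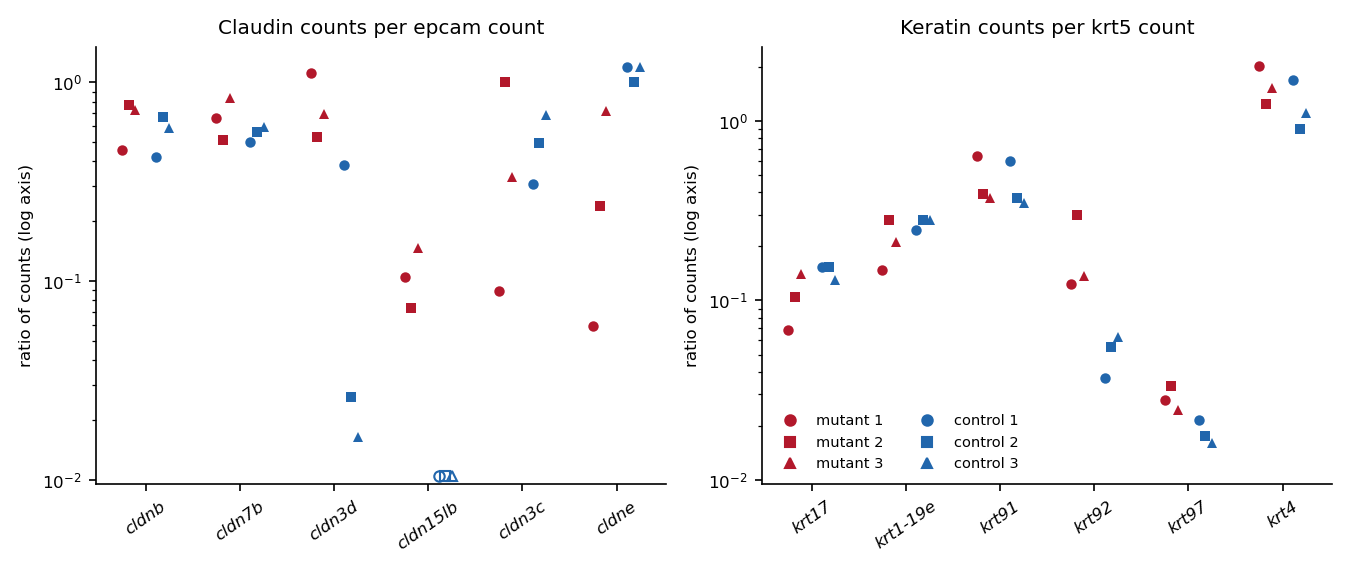
Counts of 6 claudins per epcam count (left) and of 6 keratins per krt5 count (right) within each heart library, on log axes; red marks are zfpm1 mutant hearts, blue marks control hearts, shapes are replicates as labelled, and open marks at the bottom stand for 0. cldnb and cldn7b keep nearly one ratio in all libraries, cldn3d, cldn15lb, krt92 and krt97 lie higher in mutants, and cldne lies lower per epcam count.

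The CLDN5 gene ENSDARG00000014059 rose with little spread among mutants. Claudin-5 is the main claudin of endothelial cells. This gene had 251, 249 and 266 counts in mutant hearts and 35, 88 and 76 in control hearts, or 28.1, 28.0 and 25.6 CPM against 4.28, 10.9 and 9.58 CPM. The mutants lay close together and all above the controls (27.2 ± 1.41 CPM against 8.24 ± 3.49 CPM, SD, n = 3 each), with a log2 fold change of 1.72 (SE 0.33, 95% interval 0.99 to 2.46, edgeR adjusted p 0.0124). The call was lost without control replicate 3, at a log2 fold change of 1.84 and an adjusted p of 0.0552, and it held without both libraries numbered 1 (log2 fold change 1.41, adjusted p 0.00882). The other gene with this symbol, ENSDARG00000043716, had 12.6, 4.50 and 8.09 CPM in mutant hearts and 5.14, 4.19 and 6.56 CPM in control hearts, and the groups overlapped (log2 fold change 0.67, SE 0.41, adjusted p 0.378). Of 15 tested genes of the endothelial list, 3 rose and none fell, against 7.02% and 2.42% of all genes tested. These were plvapb, which encodes a part of the diaphragms of endothelial pores and had 36.6 ± 12.2 CPM in mutant hearts and 7.13 ± 2.03 CPM in control hearts, its paralog plvapa, and lyve1a, a marker of lymphatic and some venous endothelium. Both plvapa and lyve1a passed the filter on their mutant counts alone. Without both libraries numbered 1, plvapb and lyve1a were called and plvapa was not (edgeR adjusted p 0.0515). Most of the list went the other way: of its 15 tested genes, 11 had a log2 fold change below 0 and 4 above, with a median of -0.18. The list as a whole summed to 1096, 1146 and 1306 CPM in mutant hearts and 1724, 1231 and 1387 CPM in control hearts, with overlap. Its part in the CLDN5 values was not tested.

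Control replicate 1 was the lowest control library, ties included, in 16 of the 25 tested claudins, against 37.4% of all genes tested. cldn15lb, at 0 in every control, is a tie among them. In 12 of the 25, control replicate 2 was more than 2-fold above control replicate 1. Some claudins were low in both libraries numbered 1, as the skin keratins were. cldne had 5.93, 14.1 and 14.2 CPM in mutant hearts and 3.79, 23.9 and 18.3 CPM in control hearts (log2 fold change -0.43, SE 0.58, edgeR adjusted p 0.725). cldna, which lies near cldne, had 7, 58 and 25 counts in mutant hearts and 6, 46 and 27 in control hearts, and cldn8.2 had 5, 22 and 20 in mutant hearts and 4, 31 and 21 in control hearts. Each of these 3 was low in both libraries numbered 1, with overlapping groups. cldnf and cldni had log2 fold changes of 0.81 and 0.39 and did not pass either, with adjusted p of 0.587 and 0.739. Per epcam count, cldne was at 0.0591, 0.239 and 0.714 in mutant hearts and at 1.19, 1.01 and 1.19 in control hearts, so that all mutants lay below all controls. Per krt5 count the groups overlapped, with cldne at 0.0390, 0.0236 and 0.0574 in mutant hearts and 0.0279, 0.0265 and 0.0417 in control hearts. The ratios to epcam, too, were not planned beforehand and have no test.

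Other claudins varied less between libraries. CLDN12, which differs from most claudins in lacking the end sequence that binds scaffold proteins, had 48.3, 45.5 and 44.4 CPM in mutant hearts and 37.8, 32.6 and 39.6 CPM in control hearts. All mutants lay above all controls, but the log2 fold change was 0.33 (SE 0.17, edgeR adjusted p 0.296). CLDND1, a claudin-domain protein, had 25.2, 20.0 and 21.1 CPM in mutant hearts and 30.0, 14.9 and 22.3 CPM in control hearts (log2 fold change -0.02, SE 0.27, 95% interval -0.63 to 0.59). The CLDN11 gene ENSDARG00000030723 had 14.9, 21.3 and 16.8 CPM in mutant hearts and 17.0, 27.9 and 23.8 CPM in control hearts (adjusted p 0.413). Claudin-11 is known from myelin and testis, and the other gene with its symbol, ENSDARG00000020031, had 18, 15 and 23 counts in mutant hearts and 9, 12 and 3 in control hearts, without overlap in CPM but with an adjusted p of 0.343.

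CLDN2, a claudin that forms pores for cations, had 42, 29 and 17 counts in mutant hearts and 8, 9 and 9 in control hearts. The mutants lay above the controls, at a log2 fold change of 1.56 (SE 0.53, edgeR adjusted p 0.113), or 1.13 without both libraries numbered 1. CLDN2 passed the filter on its mutant counts alone. cldng had 9, 13 and 12 counts in mutant hearts and 23, 35 and 12 in control hearts, and the difference did not pass the test (log2 fold change -1.25, SE 0.53, edgeR adjusted p 0.196). It alone among the tested claudins had all mutants below all controls in CPM. The margin was narrow, at 1.46 CPM in mutant replicate 2 and 1.51 CPM in control replicate 3, and the unscaled counts overlapped. CLDN23 had 41, 30 and 7 counts in mutant hearts and 0, 1 and 11 in control hearts, and the groups overlapped (log2 fold change 2.49, adjusted p 0.207, and 1.40 without both libraries numbered 1). The other 5 tested claudins, which are cldn30, cldn23.1, cldn1, cldn15b and cldnd1a, had log2 fold changes from -0.16 to 1.05 with adjusted p of at least 0.450 and overlapping groups. Together 8 of 25 tested claudins had all mutants above all controls and 1 all mutants below, against 16.8% and 12.9% of all genes tested. Of these 8, cldn3d, cldn15lb, cldnk and CLDN2 passed the filter on their mutant counts alone, which favours this order. Among the 14 tested keratins 2 had all mutants above and 1 all mutants below, so that 3 did not overlap, against 29.7% of all genes tested in either direction.

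Of the 8 claudins that were not tested, cldn15la was described above. The other 7 had 10 to 37 counts over all hearts and were not called with no filter, with adjusted p of 0.657 to 0.993. CLDN19 and cldn29 were spread over all libraries, cldn18 had 10 of its 18 counts in mutant replicate 1 and 6 in control replicate 2, and cldn33b, cldn23l, CLDN8 and cldn7a had 17 counts or fewer.

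Neighbouring genes did not always share a pattern. The RefSeq table of the GRCz12tu assembly held 46 of the 53 members by symbol, and 26 of them lay in 7 clusters of members at most 5 protein-coding genes apart. krt91, krt92, krt17, krt1-19d and krt1-19e formed one cluster, in which control replicate 2 was the highest control for all 5. In the cluster of cldn3c, cldn3d, cldnb, cldn29 and cldn30, log2 fold changes of the 4 tested genes ran from 0.77 to 6.19, and the highest mutant library was replicate 1 for cldn3d and cldnb and replicate 2 for cldn3c and cldn30. Near-identical neighbours can share reads. The authors' counting set reads not aligned uniquely apart from the gene counts, so values of such keratins and claudins are uncertain and may be too low. The share of reads not aligned uniquely was 11.1% to 15.5% in mutant hearts and 12.8% to 21.8% in control hearts.

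Summed levels set the families beside other tissues' markers. The keratins summed to 4812, 6181 and 5398 CPM in mutant hearts and 3916, 8148 and 5515 CPM in control hearts, with overlap. Claudin levels summed to 426, 368 and 231 CPM in mutant hearts and 128, 204 and 187 CPM in control hearts, all mutants above all controls. The liver list of 18 genes summed to 5401, 3939.5 and 2953 CPM in mutant hearts and 412, 459 and 359 CPM in control hearts. Of its 16 tested genes 13 rose and none fell, against 7.02% and 2.42% of all genes tested. The sum, like the claudin sum, epcam, cldn3d and cldn15lb, was highest in mutant replicate 1, but the genes were split, with 7 of the 13 highest in mutant replicate 1, such as tfa and CP, and 6 in mutant replicate 2, such as apoa2 and fabp10a. In that list the liver and gut transcription factor HNF4A was at 0 in all controls and passed the filter on its mutant counts alone.

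The intestine list of 23 genes summed to 219.8, 227 and 78.7 CPM in mutant hearts and 22.4, 83.5 and 50.3 CPM in control hearts, with 5 of 9 tested genes higher, none lower, and TM4SF4, gpa33b, FABP6 and 1 of the MEP1B genes at 0 in all controls. In the other direction muc2.2, a mucin gene, was at 0 in all mutants and at 0, 1.36 and 1.39 CPM in controls. TM4SF4 and gpa33b passed the filter on their mutant counts alone, and 14 of the 23 genes were not tested. Among all genes tested, 7.02% were called higher. Much of the control sum of the intestine list came from AGR2, which was not called (edgeR adjusted p 0.689). AGR2 was at 86.8, 47.6 and 19.8 CPM in mutant hearts and 9.54, 62.6 and 34.4 CPM in control hearts. The epicardium and mesothelium list of 9 genes summed to 1022, 737 and 916 CPM in mutant hearts and 892, 899 and 944 CPM in control hearts, and edgeR called none of its 9 tested genes, of which 2 had an unadjusted p under 0.05. The part of liver, gut or other tissue in the claudin and epcam values was not tested.

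**Figure D5:**
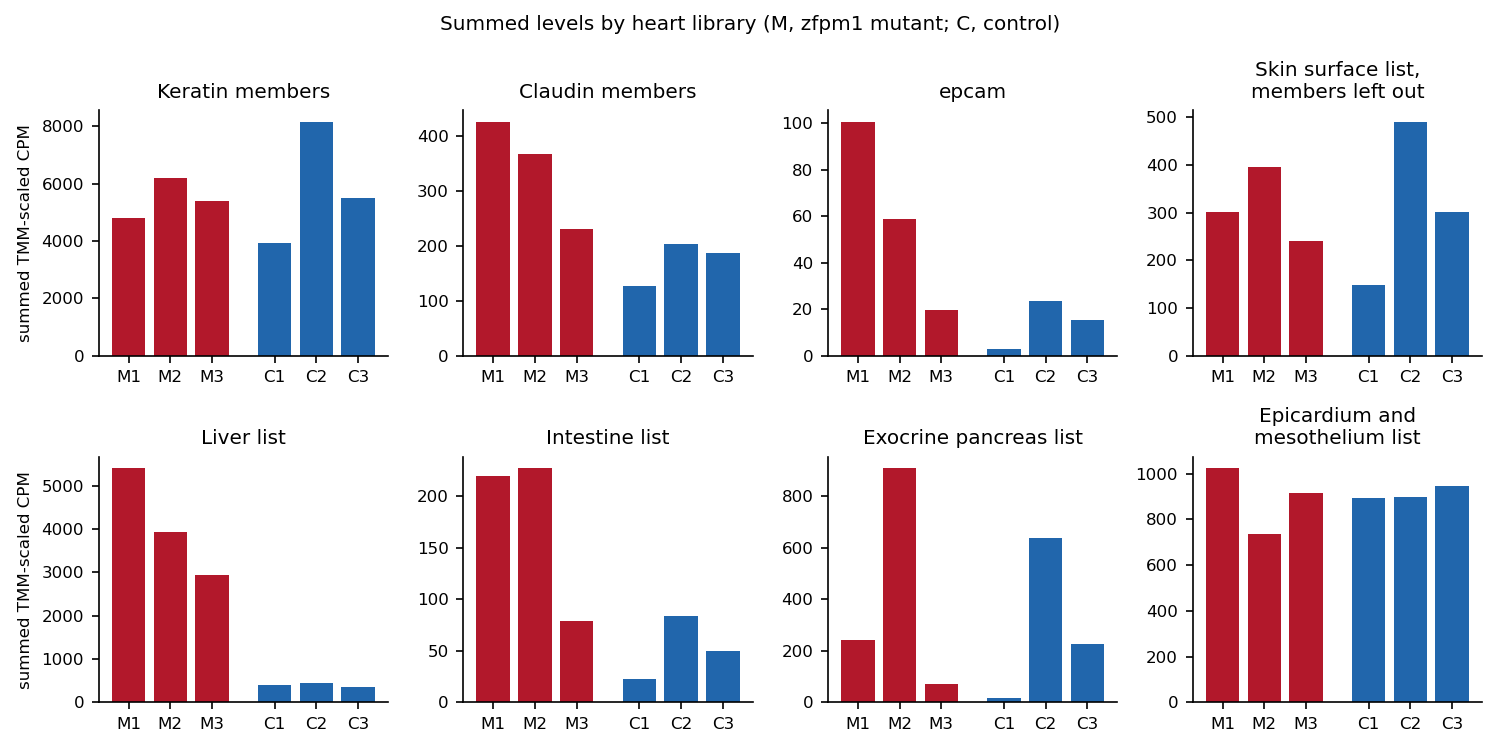
Summed TMM-scaled CPM (y axis, starting at 0) of the keratin and claudin members, epcam and 5 marker lists in each heart library; red bars are zfpm1 mutant hearts M1 to M3 and blue bars control hearts C1 to C3. Claudins, epcam and the liver list fall in the order M1, M2, M3, while the keratins and the skin and pancreas lists are high in M2 and C2 and low in C1.

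Among 18 tested tight junction partners and 15 tested genes of desmosomes and adherens junctions, few passed the test. CGNL1, a junction plaque gene of the cingulin family, fell, at 86.4, 105 and 97.9 CPM in mutant hearts and 180.4, 142 and 145 CPM in control hearts (log2 fold change -0.69, SE 0.18, edgeR adjusted p 0.0469). Most of the 18 partners went the other way. Their log2 fold change was above 0 in 14 and below 0 in 4, with a median of 0.38, and 1 partner was called higher. Of the desmosome and adherens junction genes only cdh1, the E-cadherin gene of epithelia, rose, at 79.7, 32.6 and 21.0 CPM in mutant hearts and 6.48, 9.74 and 9.84 CPM in control hearts (log2 fold change 2.35, SE 0.47, adjusted p 0.0158). Its order among mutants was that of epcam, with mutant replicate 1 the highest, and without both libraries numbered 1 it was still called (log2 fold change 1.47, edgeR adjusted p 0.0157). CGNL1 was not (adjusted p 0.156).

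Of 12 tested epithelial transcription factors none fell. ELF3, known from gut and other simple epithelia, had 75.3, 31.0 and 7.42 CPM in mutant hearts and 0.612, 3.45 and 2.02 CPM in control hearts, and it rose (log2 fold change 4.21, SE 0.85, edgeR adjusted p 0.0165). Without both libraries numbered 1 this was 2.82 (adjusted p 0.0253). The basal skin regulator TP63 had 6.66 ± 3.89 CPM in mutant hearts and 6.62 ± 1.71 CPM in control hearts (SD, n = 3 each; adjusted p 0.996). On the skin surface list, 14 of 22 tested genes had a log2 fold change below 0 and 8 above, with a median of -0.23. The list includes the members krt4 and krt5. Of the 22 genes, 3 rose and none fell. They were the membrane proteases st14 and st14a and the protease inhibitor spint1b, with log2 fold changes of 2.40, 2.55 and 1.71, and without both libraries numbered 1 st14 alone of them was called (edgeR adjusted p 0.0419, against 0.0719 for st14a and 0.189 for spint1b), while the skin genes icn and anxa1c did not pass, at adjusted p of 0.668 and 0.703. Among 13 tested genes of the gill, ionocyte and mucus list only ca2 rose (edgeR adjusted p 0.0288, and 0.122 without both libraries numbered 1). In that list 8 of the 13 had a log2 fold change below 0, with a median of -0.34. Among 5 tested genes of the kidney list only AQP1 (ENSDARG00000023713) fell (edgeR adjusted p 0.0326), while 3 of the 5 were above 0. Another 9 genes of the kidney list were not tested.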

How the data were processed

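Each library came with a table of raw counts by gene ID, as deposited by the authors and without normalisation. The submitters' processing notes list TopHat2 2.2.1, HTSeq 0.6.1p1, Bowtie2 2.2.3, FastQC 0.11.5 and bcl2fastq, and the build GRCz10. For the annotation release and the strand setting, the status is not given in the sources used here. The labels' protocols describe no step that marks strand. Reads in no feature made up 45.9% to 48.8% of all lines in mutant and 42.4% to 47.5% in control heart files. Those and other unassigned lines entered neither library sizes nor tests. Symbols came from a table that named 26121 of 31953 IDs.

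edgeR 4.0.16 in R 4.3.3 compared the 3 mutant with the 3 control hearts, with group as the only term, after filterByExpr (minimum count 10) and TMM. P-values were adjusted by Benjamini-Hochberg over all 16707 genes tested, and genes under 0.05 were called. The SE of an edgeR fit was the absolute log2 fold change divided by the square root of the test's F statistic. DESeq2 1.42.0, other filters, size scaling, a replicate block and leaving out libraries were the alternatives. The steps were tested on simulated counts. Intervals of counts and limits for counts of 0 cover counting error only.

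The members and marker lists were chosen with earlier results of these data known. Values in full were given for epcam, called members, the 5 keratins and 5 claudins with the highest mean CPM, and members of at least 100 counts with over 50% of their summed CPM in 1 library. Up to 3 genes with the smallest adjusted p of each marker list could be named. Other members and list genes named were added after their values had been seen, to account for the families and the tissues. Results for some list genes are not reported here.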

Additional observations from a re-analysis of the deposited data

How the results depend on the processing

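No called claudin changed sign under an alternative that was run, and CLDN5 ENSDARG00000014059 alone lost its call, without control replicate 3 (adjusted p 0.0552 by edgeR). Scaling by library size alone raised the median log2 fold change of all genes from -0.01 to 0.25; it called 236 genes lower against 404 and 1 keratin higher (krt18b), and relative to that median the keratins lay at -0.18 and the claudins at 0.77, against -0.19 and 0.78 with TMM. It turned the sign of krt4, CLDND1, cldna and cldn15b, none of which was called. DESeq2 called 697 genes lower. With no filter on low counts 6 claudins were called higher, adding cldn7b, cldnk and cldn15la, and the claudin median was 0.43 over 33 genes. With 1 library left out, 443 to 1035 genes were called higher and 161 to 328 lower, 2 to 4 claudins and no keratin were called higher, and the claudin median ran from 0.37 to 0.92; in the keratins the median ran from -0.56 to 0.26, so its sign rests on single libraries. Same-numbered mutant and control libraries deviated from their group means with correlations of 0.0955, 0.219 and -0.083, so the numbers were not taken to pair samples; with the replicate number as a block, 1 keratin (krt17) was called lower and 3 claudins higher. Low counts kept 13 members out of the test, with 10 to 62 counts over all hearts except cldn15la, whose 95 counts lay mostly in mutant replicate 2, so that too few libraries reached the filter's minimum.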

Other observations

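In the embryo-labelled files the members followed the heart library with the same totals. Over members that reached 50 counts there, control heart replicate 1 had a median of 0.504 of the count under the zfpm1 mutant embryo label (20 members), and mutant heart replicate 1 a median of 0.503 of the count under the control embryo label (31 members). Over all genes these medians were 0.504 and 0.503. The highest member ratio was that of cldn15b in both pairs, at 0.700 and 0.661. epcam had 59 counts under the zfpm1 mutant embryo label and 1740 under the control embryo label, and cldn3d had 15 and 1933 in that order. Reads in no feature made up 9.53% of lines under the zfpm1 mutant embryo label, against 47.5% in control heart replicate 1, which has the same totals. Since the totals match those of a heart library of the other genotype label, the order of these 2 genes between the embryo labels is that of the hearts and is no separate observation on embryos.

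Among 25 tested claudins mutant replicate 1 was the highest mutant in 11, replicate 2 in 8 and replicate 3 in 6. Among 14 tested keratins these counts were 2, 7 and 5.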
